A study of Rattus norvegicus with 8 samples.

Results

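The genes described here mark the subfields of the rat hippocampus. They were taken by symbol from the deposited tables of hippocampus and hypothalamus, with FPKM summed over the loci of a symbol, where FPKM is a count of sequenced fragments corrected for transcript length and library size. There were 10 such genes, all listed in both tables, of 15892 symbols that the tables share: Wfs1, Fibcd1 and Man1a1 for field CA1, Rgs14 and Amigo2 for CA2, Bok and Cpne4 for CA3, and Prox1, C1ql2 and C1ql3 for the dentate gyrus. The libraries came from male Sprague Dawley rats, an outbred strain, that were 2 months old at the start and drank water with 15% fructose while eating chow enriched in omega-3 fat, labelled DHA (docosahexaenoic acid), for 6 weeks. All 8 libraries, 4 of hippocampus and 4 of hypothalamus, share this diet, so no effect of diet can be read from them. Whether the libraries stand for separate animals is not stated, so the spread given is that between libraries.

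The hippocampus is a relay of excitatory neurons. Granule cells of the dentate gyrus send mossy fibres to pyramidal cells of CA3, CA3 projects to CA1, and CA2 lies between CA3 and CA1 with inputs and plasticity of its own. Each field expresses a characteristic set of genes, and in a dissected piece of tissue the level of such a gene depends on how much of its field the piece holds as well as on expression per cell. Fewer cells of a type and less RNA per cell cannot be told apart in these bulk libraries. None of these genes is restricted to the hippocampus as a whole, and several are known from hypothalamic neurons or from cells outside the brain.

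Marker genes followed the tissue labels. Slc17a7, the vesicular glutamate transporter of pallial neurons, was listed at 568 to 997 FPKM in the hippocampus libraries and at 0.15 to 1.02 FPKM in those of hypothalamus. Avp, encoding vasopressin, was listed at 0 to 0.24 FPKM and at 2219 to 7878 FPKM respectively. Read numbers were unknown. Each tissue had a table of its own, and some genes used by every cell were far apart between the tables. Gapdh, a glycolytic enzyme, was listed at 5.74 ± 1.64 FPKM (SD, n = 4) for hippocampus and 631 ± 129 FPKM for hypothalamus, while Actb, encoding beta-actin, was at 1529 ± 93.1 and 1451 ± 166 FPKM. Hippocampus replicates 3 and 4 stood apart by choroid plexus genes: Ttr was at 6283 and 4740 FPKM there and at 34.5 and 34.2 FPKM in replicates 1 and 2. Tissue and table coincide, so levels are set side by side and no p-value is given for a difference between the tissues.

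Most of the subfield genes were listed at higher levels in hippocampus, and Amigo2 was the exception. For this comparison, libraries were scaled jointly, values were taken as log2(FPKM + 1), a scale that shrinks the differences of genes near 0, and a gene was called when the mean difference was at least 1, a 2-fold change on that scale, and every library of a tissue lay beyond every library of the other. Of the 10 members, 9 passed the filter of a mean of at least 1 FPKM over all libraries, and 7 of these were called lower in hypothalamus, beside 13.4% of the 10557 genes compared. Amigo2 was called higher, as were 13.3% of all genes, and Bok was neither. The median difference was -1.61 over the 9 members and -0.04 over all genes. Folds given with a difference below are on the same scale, that is of FPKM + 1 after joint scaling, and not of FPKM itself. A linear model in limma, which measures only the spread between libraries, also gave 7 members lower and 1 higher, beside 13.6% and 13.8% of all genes, and 13.6% and 13.9% with the replicate number as a block. The scaling set the balance over all genes: 49.9% of the called genes were higher in hypothalamus after joint scaling and 65.3% with values as deposited, where the median gene lay at 0.18.

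**Figure D1:**
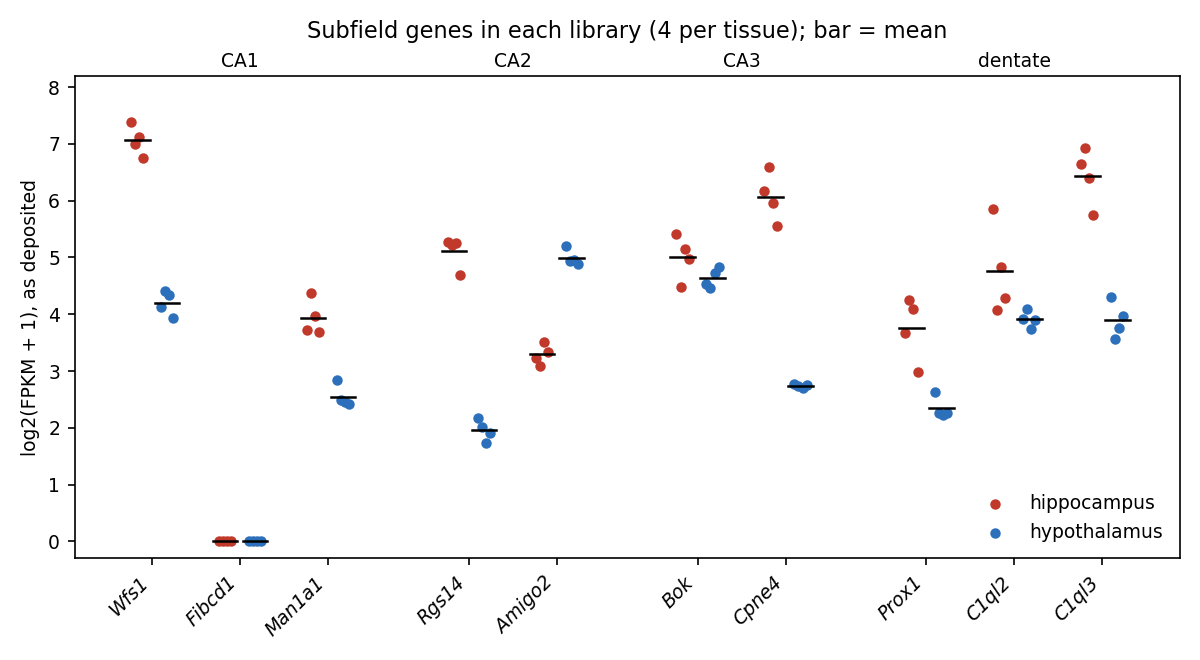
Level of each subfield gene in every library, as log2(FPKM + 1) of the deposited values (vertical axis), grouped by subfield; points are libraries of hippocampus (red) and hypothalamus (blue), 4 each, and bars are means. Wfs1, Rgs14, Cpne4 and C1ql3 lay far higher in hippocampus, Amigo2 lay higher in hypothalamus, Bok and C1ql2 overlapped between the tissues at this scale, and Fibcd1 was listed at 0 throughout.

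Among the CA1 genes, Wfs1 and Man1a1 were lower in hypothalamus and Fibcd1 gave no signal. Wfs1 encodes wolframin, a membrane protein of the endoplasmic reticulum that is mutated in Wolfram syndrome, and labels pyramidal cells of CA1. It was listed at 166, 126, 138 and 107 FPKM in hippocampus replicates 1 to 4 and at 16.4, 20.3, 19.1 and 14.3 FPKM in those of hypothalamus. The lowest hippocampus library thus lay far above the highest hypothalamus library, and the difference was -3.09 ± 0.19 (SE), or 8.50-fold. Only 0.84% of all genes compared had a difference further down. Its hippocampus level lay above that of 97.1% of all symbols in that table.

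Man1a1 encodes a Golgi mannosidase that trims N-linked glycans. It was listed at 12.1, 19.7, 14.7 and 11.8 FPKM in hippocampus and at 6.15, 4.61, 4.46 and 4.37 FPKM in hypothalamus. The libraries of the tissues did not overlap, and the difference of -1.59 ± 0.19 corresponded to 3.02-fold. The symbol had 2 loci in the hippocampus table and 1 in that of hypothalamus, and the second hippocampus locus added at most 0.985 FPKM, in replicate 2.

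Fibcd1, a transmembrane receptor that binds acetylated sugars such as chitin and a gene of CA1 pyramidal cells, was listed at 0 in every library. Both tables hold 2 loci of the symbol, all at 0 and all with the status OK. A listed 0 was not unusual in these tables. Of the 15892 shared symbols, 2397 (15.1%) were at 0 in all 8 libraries, and 4 of 73 ribosomal protein genes were at 0 in all hippocampus libraries. Col1a2, the partner chain of Col1a1 in collagen type I, was at 0 throughout while Col1a1 was listed at 39.8 ± 17.3 FPKM in hypothalamus. The zeros of Fibcd1 are therefore not read as missing expression.

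The CA2 genes parted in opposite directions. Rgs14 encodes a regulator of G protein signalling that restrains synaptic plasticity in CA2 pyramidal cells. It was listed at 37.5, 36.2, 37.3 and 24.7 FPKM in hippocampus and at 3.51, 3.02, 2.34 and 2.74 FPKM in hypothalamus. Replicate 4 was the low library of hippocampus, yet still several times above all of hypothalamus. The difference was -3.35 ± 0.18, or 10.2-fold, and 0.63% of all genes lay further down. Amigo2 encodes an adhesion protein with leucine-rich repeats and is a marker of CA2 within the hippocampus. It was listed at 8.40, 7.53, 10.4 and 9.15 FPKM in hippocampus and at 35.7, 29.7, 30.0 and 28.4 FPKM in hypothalamus, without overlap. Its difference was 1.48 ± 0.10, or 2.79-fold, and 93.0% of all genes had a lower one. Within a library the ratio of Amigo2 to Rgs14, which does not depend on the scaling of the library, was 0.21 to 0.37 in hippocampus and 9.83 to 12.9 in hypothalamus.

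The sequences upstream of the start of these CA2 genes show how unlike the pair is at the promoter. The 250 bases before the RefSeq start site are given 5′ to 3′ on the gene's strand, on build GRCr8, a later build than the rn5 of the deposited tables: chr17:9268234-9268483, minus strand, for Rgs14 and chr7:130273736-130273985, minus strand, for Amigo2. Capitals mark the E-box CANNTG, the core sequence bound by basic helix-loop-helix factors such as the NeuroD proteins, the GC box GGGCGG, bound by Sp1-type factors, and TATAAA, each searched on both strands.
Rgs14: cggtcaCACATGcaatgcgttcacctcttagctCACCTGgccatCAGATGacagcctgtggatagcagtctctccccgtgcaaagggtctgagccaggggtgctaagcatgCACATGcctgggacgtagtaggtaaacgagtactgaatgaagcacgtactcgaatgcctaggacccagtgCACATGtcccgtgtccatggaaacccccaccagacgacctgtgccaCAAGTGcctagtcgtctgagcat
Amigo2: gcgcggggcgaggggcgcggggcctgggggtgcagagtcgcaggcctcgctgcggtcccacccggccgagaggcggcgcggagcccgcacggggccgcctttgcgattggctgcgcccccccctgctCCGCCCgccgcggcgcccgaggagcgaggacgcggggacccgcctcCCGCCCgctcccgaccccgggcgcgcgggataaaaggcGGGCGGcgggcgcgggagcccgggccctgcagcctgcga
Rgs14 had 6 E-boxes and no GC box in this window, at 55.6% G and C with 10 CpG dinucleotides. Amigo2 had 3 GC boxes and no E-box, at 82.8% G and C with 42 CpG. At least 1 E-box was found in 65.5% of 33360 rat promoter windows of the same length, at least 6 in 0.26%, and a GC box in 30.5%. The median window held 51.6% G and C and 5 CpG. Other members called lower in hypothalamus did not share the counts of Rgs14. Wfs1 had 1 E-box and 2 GC boxes, Man1a1 no E-box and 1 GC box, and Cpne4 1 E-box and no GC box. These matches describe letters only, and binding was not measured. Any link between the motifs and the tissue difference was not tested.

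Of the CA3 genes, Cpne4 had the largest drop among the members and Bok did not separate the tissues. Cpne4 encodes a copine, a protein that binds membrane phospholipids in the presence of calcium. It was listed at 71.2, 96.0, 61.3 and 45.8 FPKM in hippocampus, where replicate 2 was high and replicate 4 low. In hypothalamus it was at 5.86, 5.63, 5.49 and 5.74 FPKM, a narrow range well below every hippocampus library. The difference was -3.55 ± 0.24, or 11.7-fold, and 0.52% of all genes lay further down. Bok, a member of the Bcl-2 family that promotes cell death, was listed at 41.4, 21.4, 34.7 and 30.5 FPKM in hippocampus and at 22.3, 21.0, 25.5 and 27.4 FPKM in hypothalamus. Hippocampus replicate 2 lay within the range of hypothalamus, and the difference of -0.59 ± 0.22 stayed under the limit. The ratio of Cpne4 to Bok within a library was 1.503 to 4.49 in hippocampus and 0.21 to 0.27 in hypothalamus.

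The dentate genes were all called lower in hypothalamus, C1ql3 by far the most and C1ql2 at the limit. Prox1 encodes a homeobox transcription factor that specifies granule cells. It was listed at 11.7, 18.2, 16.2 and 6.95 FPKM in hippocampus and at 5.23, 3.78, 3.70 and 3.82 FPKM in hypothalamus. With loci summed, replicate 4 of hippocampus came closest to the hypothalamus range but did not enter it, and the difference was -1.61 ± 0.30, or 3.05-fold. The symbol had 2 loci in hippocampus and 1 in hypothalamus. The lesser hippocampus locus was at 0 in replicate 1 and at 1.89 to 3.53 FPKM in the others. The main hippocampus locus alone was at 5.06 FPKM in replicate 4, below hypothalamus replicate 1 as deposited. With the highest locus only, the jointly scaled difference was -1.39 and the call remained.

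C1ql2 and C1ql3 encode secreted proteins with a C1q domain that granule cells release at mossy fibre synapses, where they recruit kainate receptors and bind the adhesion receptor Bai3. C1ql3 was listed at 99.2, 121, 83.9 and 52.5 FPKM in hippocampus and at 18.9, 10.8, 12.5 and 14.6 FPKM in hypothalamus. No library overlapped, and the difference of -2.76 ± 0.31 was 6.77-fold. C1ql2 was listed at 56.6, 15.9, 27.4 and 18.6 FPKM in hippocampus and at 14.02, 16.1, 12.3 and 13.9 FPKM in hypothalamus. As deposited, hippocampus replicate 2 fell below hypothalamus replicate 2, and after joint scaling the libraries separated with a difference of -1.07 ± 0.41. The call rested on the scaling and on a single library: it ended on the deposited values (-0.85), under upper-quartile scaling (-0.96), without hippocampus replicate 1 (-0.70) and without the first library of both tissues (-0.69). Within hippocampus the ratio of C1ql2 to C1ql3 varied from 0.13 in replicate 2 to 0.57 in replicate 1.

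The pair of C1q-like genes is shown in the same way, since they share a family and a cell type but not their pattern over the libraries. The windows lie at chr13:34023652-34023901, plus strand, for C1ql2 and chr17:81038245-81038494, minus strand, for C1ql3 (RefSeq, GRCr8), with capitals as above.
C1ql2: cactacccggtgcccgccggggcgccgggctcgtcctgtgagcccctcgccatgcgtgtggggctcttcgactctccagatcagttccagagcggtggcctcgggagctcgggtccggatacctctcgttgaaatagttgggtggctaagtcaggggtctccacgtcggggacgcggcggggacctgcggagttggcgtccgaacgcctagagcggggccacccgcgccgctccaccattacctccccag
C1ql3: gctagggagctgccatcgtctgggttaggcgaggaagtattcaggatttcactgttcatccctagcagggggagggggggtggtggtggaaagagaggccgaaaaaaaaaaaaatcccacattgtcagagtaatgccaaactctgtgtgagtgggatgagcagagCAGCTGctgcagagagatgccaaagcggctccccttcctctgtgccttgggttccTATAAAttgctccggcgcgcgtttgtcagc
C1ql2 had none of the motifs, at 68.8% G and C with 27 CpG. C1ql3 had 1 E-box and a TATAAA, which 12.9% of all windows hold, at 54.0% G and C with 8 CpG. Of the 10 members, 8 had a window in the RefSeq table, and Prox1 and Bok were not among them.

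**Figure D2:**
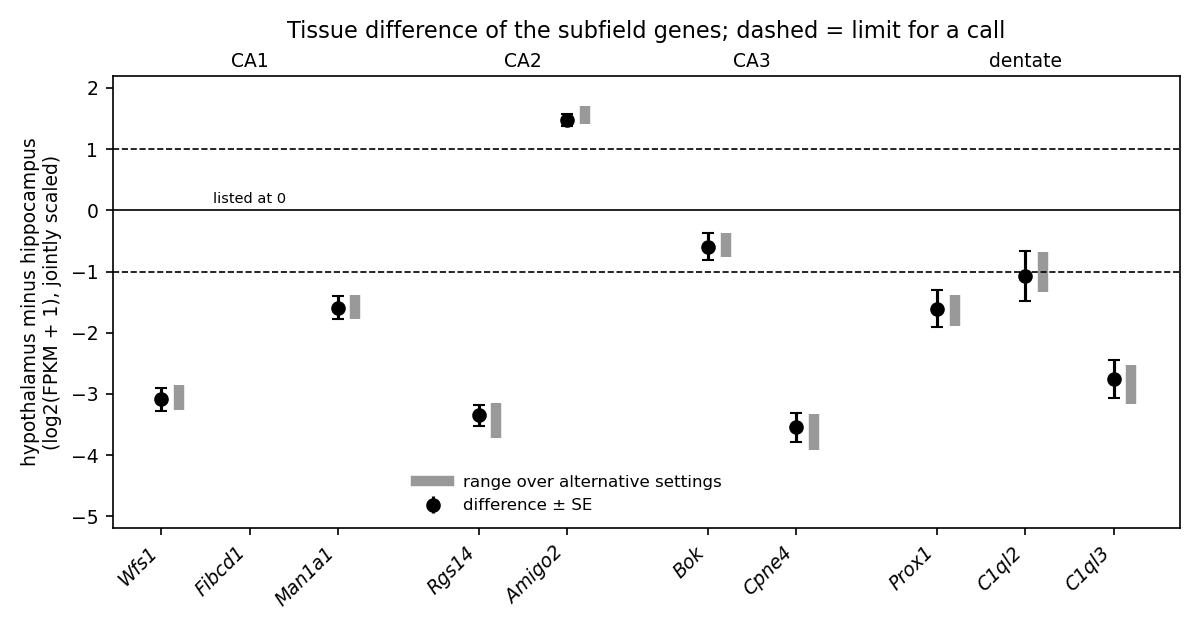
Difference between hypothalamus and hippocampus for each subfield gene past the filter, on the log2(FPKM + 1) scale after joint scaling; points are means with SE (4 libraries per tissue), grey bars the range over the alternative settings, dashed lines the limit for a call. The range of C1ql2 crosses the limit, from -1.33 to -0.69, and that of Bok stays inside it.

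The order of the genes changed between the tissues. In hippocampus the order by mean level was Wfs1 (134 ± 24.9 FPKM, n = 4), C1ql3 (89.2 ± 28.8), Cpne4 (68.6 ± 21.0), Rgs14 (33.9 ± 6.16), Bok (32.0 ± 8.38), C1ql2 (29.6 ± 18.6), Man1a1 (14.6 ± 3.62), Prox1 (13.2 ± 4.99) and Amigo2 (8.87 ± 1.21). Wfs1 exceeded C1ql3, and C1ql3 exceeded Cpne4, within each of the 4 libraries, although their ranges overlapped across libraries. Cpne4 and Rgs14 did not overlap. From Rgs14 down to Amigo2 every pair of neighbours overlapped in range, and none was ordered alike in all 4 libraries. In hypothalamus Amigo2 led (31.0 ± 3.24 FPKM, n = 4), followed by Bok (24.1 ± 2.96), Wfs1 (17.5 ± 2.69), C1ql3 (14.2 ± 3.48), C1ql2 (14.1 ± 1.55), Cpne4 (5.68 ± 0.16), Man1a1 (4.90 ± 0.84), Prox1 (4.14 ± 0.73) and Rgs14 (2.90 ± 0.49). There, Wfs1, C1ql3 and C1ql2 overlapped as neighbours, as did Cpne4 with Man1a1 and Man1a1 with Prox1, and the other neighbours did not. Man1a1 still exceeded Prox1 within each of the 4 libraries. Amigo2 thus stood last among the detected members in hippocampus and first in hypothalamus, and Rgs14 fell from the fourth place to the last.

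Most of the subfield genes varied more than the median gene between the hippocampus libraries. Over all 4 libraries the dentate genes had the largest SD among the members, but this ranking depended on single libraries. Of the 9 members, 8 had a larger SD of log2(FPKM + 1) over the 4 libraries than the median of the 7613 genes with at least 5 FPKM there, which was 0.26. The SD was 0.81 for C1ql2, above 98.1% of these genes, 0.58 for Prox1, above 93.4%, and 0.54 for C1ql3, above 91.1%. Leaving out 1 library lowered each by over 1.5 times: the SD of C1ql2 was 0.37 without replicate 1, and without replicate 4 that of Prox1 was 0.28 and that of C1ql3 0.27. The SD of Rgs14 dropped likewise, from 0.31 to 0.05, without replicate 4. That of Wfs1 went from 0.29 to 0.19 without replicate 1, and without replicate 2 that of Man1a1 went from 0.32 to 0.15 and that of Bok from 0.40 to 0.25. Amigo2 was the exception, at 0.16, above 23.4% of these genes. Wfs1 lay above 58.2% of them, Rgs14 above 61.4%, Man1a1 above 65.1%, Bok above 78.0% and Cpne4 above 85.4%. Without replicate 4 the SD of Bok (0.49), Cpne4 (0.33) and Man1a1 (0.31) exceeded that of Prox1 and C1ql3. Without replicate 1 that of Cpne4 (0.55) exceeded that of C1ql2. The count of 8 members became 7 without hippocampus replicate 1 or replicate 2, and 6 without replicate 4. In hypothalamus 6 members passed the same filter and 2 exceeded the median of 0.20, Wfs1 at 0.22 and C1ql3 at 0.31, while Cpne4 was at 0.03, above 0.47% of genes. The count was 4 without hypothalamus replicate 1 and 1 without replicate 2 or replicate 4. Hypothalamus replicate 1 stood apart: it was the highest library for 41.0% and the lowest for 41.9% of 8089 genes, and the highest for 6 of the 9 members.

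The members did not vary together in a single order. Replicate 4 was the lowest hippocampus library for 6 of 9 members (Wfs1, Man1a1, Rgs14, Cpne4, Prox1 and C1ql3), and for 29.5% of all genes with at least 5 FPKM. Replicate 2 was the lowest for the other 3, Amigo2, Bok and C1ql2, and for 39.4% of all genes. C1ql3 and Cpne4 shared the order of replicates 2, 1, 3 and 4 from high to low, which 11.1% of genes had, and their ratio within a library stayed at 1.14 to 1.39. Man1a1 and Prox1 shared the order 2, 3, 1 and 4 (10.6% of genes). C1ql2 and Bok, of different fields, shared the order 1, 3, 4 and 2 (4.47% of genes), and Wfs1 and Rgs14 the order 1, 3, 2 and 4 (2.18%). Dentate genes were thus split, with C1ql2 highest in replicate 1 and Prox1 and C1ql3 highest in replicate 2. Among all genes with at least 5 FPKM, replicate 1 was the highest library for 26.1% and replicate 2 for 37.8%.

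**Figure D3:**
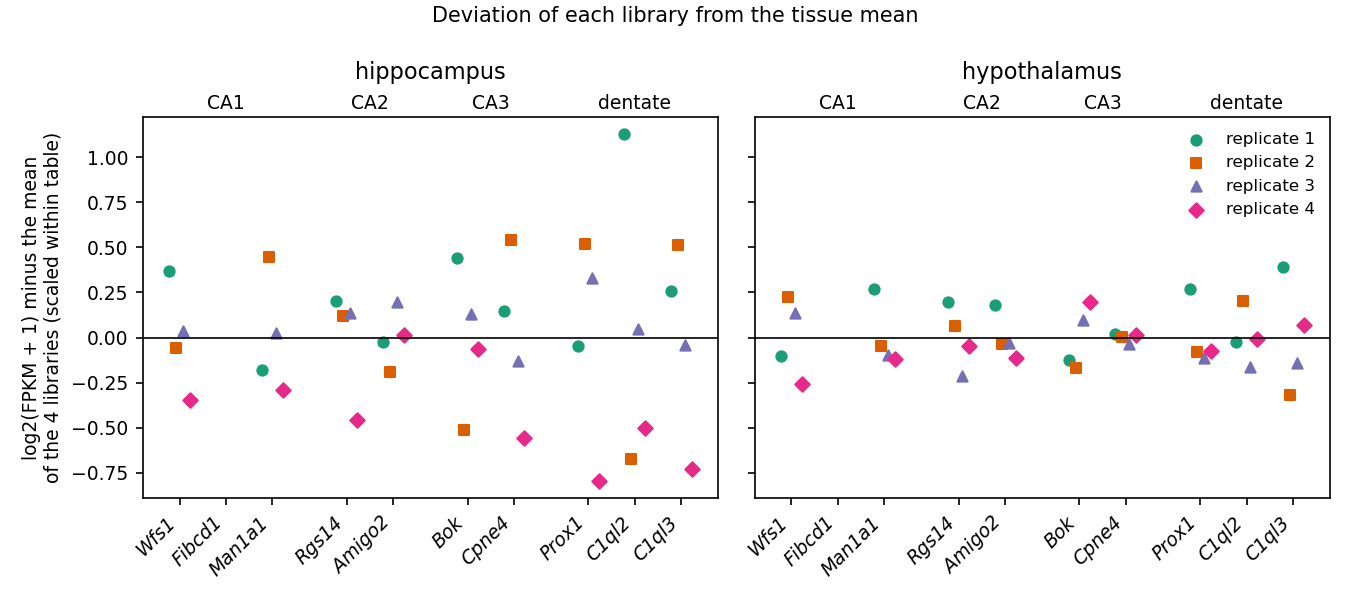
Deviation of each library from the mean of its tissue for every detected subfield gene (vertical axis, log2(FPKM + 1), scaled within the table; symbols and colours are replicates 1 to 4). In hippocampus replicate 4 lies lowest for 6 of 9 genes and C1ql2 in replicate 1 lies highest of all, while in hypothalamus the libraries lie closer together.

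Markers of neighbouring regions also differed between the hippocampus libraries. The summed level of 3 choroid plexus genes (Ttr, Kcnj13 and Kl) was 52.9 and 72.0 FPKM in replicates 1 and 2, and 6413 and 4820 FPKM in replicates 3 and 4. The sum of 4 striatal genes was 25.7 to 55.3 FPKM, lowest in replicate 2 and highest in replicate 4. Ppp1r1b carried it, at 44.9 FPKM in replicate 4, and Rgs9 was also highest there. Drd1 and Adora2a were highest in replicate 1, at 5.79 and 2.54 FPKM, against 5.14 and 2.30 FPKM in replicate 4. Of 3 fibroblast genes only Col1a1 was highest in replicate 4, at 20.4 FPKM against 3.03 to 8.17 FPKM, while Lum was highest in replicate 2 and Col1a2 was at 0 throughout. The sum of 3 thalamic genes was lowest in replicate 1, at 12.7 FPKM, and highest in replicate 3, at 38.6 FPKM. That of 5 pallial neuron genes was highest in replicate 1, at 1157 FPKM, and 704 to 754 FPKM in the others. Slc17a7 carried that sum, whereas Neurod6 and Emx2 were highest in replicate 2, at 92.5 and 8.72 FPKM against 86.9 and 7.02 FPKM in replicate 1. The sums of 4 neuronal genes ran from 1317 to 1521 FPKM, of 4 astrocyte genes from 532 to 677 FPKM, of 4 oligodendrocyte genes from 2755 to 4332 FPKM, of 4 microglial genes from 79.6 to 128 FPKM, of 3 endothelial genes from 75.3 to 105 FPKM and of 3 cortical layer genes from 14.4 to 20.3 FPKM. The part of these differences in the variation of the subfield genes was not tested. Without hippocampus replicates 3 and 4 the calls were the same in number, 7 lower and 1 higher, beside 14.6% and 15.2% of all genes. Wfs1 was then at -3.27, Cpne4 at -3.92 and C1ql3 at -3.17.

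The balance between the genes of the fields was computed within each library, as the mean log2(FPKM + 1) of a field's genes minus that of CA1. It sets different genes side by side, so its size and sign depend on which genes are listed for a field. How much of each field a piece held was not measured. With Fibcd1 counted at its listed 0, the mean over hippocampus libraries was 0.54 ± 0.13 for CA2 (SD, n = 4), 1.87 ± 0.15 for CA3 and 1.32 ± 0.34 for the dentate gyrus. Without Fibcd1 these values were -1.30 ± 0.16, 0.04 ± 0.16 and -0.52 ± 0.30, so the sign of the CA2 and dentate balances turned on that gene and the CA3 balance came close to 0. The dentate balance without Fibcd1 was -0.16, -0.59, -0.43 and -0.87 in replicates 1 to 4, lowest in replicate 4. The CA3 balance was 0.24, -0.14, 0.01 and 0.05. In hypothalamus the values without Fibcd1 were 0.10 ± 0.13 for CA2, 0.31 ± 0.21 for CA3 and 0.01 ± 0.18 for the dentate genes. Levels of these balances are not compared between the tissues, since the CA2 value averages Rgs14 and Amigo2, which went opposite ways.

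Other genes named for the same fields gave the same direction for CA1 and the dentate gyrus and a mixed one for CA2 and CA3. Of 4 further CA1 genes, 3 passed the filter and all 3 were called lower in hypothalamus, with a median difference of -2.37. Over all genes compared, 13.4% were called lower and 13.3% higher. Mpped1, a metallophosphoesterase, had 85.01 ± 6.53 FPKM in hippocampus against 14.1 ± 0.64 FPKM in hypothalamus, with a difference of -2.74 ± 0.08. Nov, a secreted matrix-associated protein, was at 67.7 ± 15.9 and 15.5 ± 7.65 FPKM. When only the highest locus of a symbol was kept, 2 of these 3 CA1 genes were called lower. Among symbols of 1 locus only 1 of them was left, and it was called lower. Of 6 further dentate genes, 3 passed the filter and all 3 were called lower, beside the same 13.4%, with a median of -1.40. Plk5, a polo-like kinase, was at 6.26 ± 1.48 and 1.14 ± 0.29 FPKM. Stxbp6, a binding partner of SNARE proteins, was at 28.6 ± 10.8 and 11.6 ± 2.00 FPKM over 2 loci in hippocampus and 1 in hypothalamus, and its difference of -1.40 became 0.15 when only the highest locus was kept. With the filter at a mean of 5 FPKM only 1 of the 3 dentate genes was left, and it was called lower.

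Over the hippocampus libraries, these dentate genes were not ordered alike. Plk5 was at 8.07, 4.79, 6.80 and 5.36 FPKM, highest in replicate 1 and lowest in replicate 2 like C1ql2. Stxbp6 was at 20.3, 43.0, 30.7 and 20.4 FPKM, highest in replicate 2 like Prox1 and C1ql3. That order came from summing loci: the first locus was at 0, 29.4, 19.9 and 13.8 FPKM and the second at 20.3, 13.6, 10.8 and 6.59 FPKM, highest in replicate 1. Trpc6, a cation channel gene named after its values were seen, was at 5.64, 6.25, 5.13 and 3.22 FPKM, with replicate 4 lowest as for Prox1. Of the other dentate genes, Tdo2 and Lct were at or near 0 in all libraries and Dsp was not in both tables.

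Among 7 further CA2 genes 5 passed the filter, with 1 lower, 2 higher and 2 neither, beside 13.4% lower and 13.3% higher over all genes. Pcp4, a calmodulin-binding peptide and a standard label of CA2, was at 53.0, 16.9, 36.4 and 51.5 FPKM in hippocampus and at 753 to 972 FPKM in hypothalamus. Its difference of 4.32 ± 0.38 exceeded that of Amigo2 and had the same sign. Ntf3, the neurotrophin NT-3, followed Rgs14, averaging 6.64 ± 2.15 FPKM in hippocampus against 0.72 ± 0.18 FPKM in hypothalamus, a difference of -2.26 ± 0.22. Ntf3 was under 1 FPKM in every hypothalamus library and passed the filter only through its hippocampus level. With the filter at a mean of 5 FPKM, 3 of the further CA2 genes were left, with 0 lower and 1 higher, beside 15.2% and 12.6% of all genes. Necab2, a calcium-binding protein, was at 99.6 ± 12.4 and 58.7 ± 4.47 FPKM and stayed just under the limit at -0.98 ± 0.10. It passed the limit without hippocampus replicate 2 (-1.02), without hippocampus replicate 4 (-1.05), without hypothalamus replicate 4 (-1.02) and among symbols of 1 locus (-1.03). Stard5, a lipid transfer protein named after its values were seen, was the other gene called higher, at 1.008 ± 0.13. It missed the limit without hippocampus replicate 2 (0.92), hippocampus replicate 3 (0.99998) or hypothalamus replicate 4 (0.96), without hippocampus replicates 3 and 4 together (0.99) and among symbols of 1 locus (0.98). Of 6 further CA3 genes 3 passed, with 1 higher and 2 neither. Grik4, the kainate receptor subunit of mossy fibre synapses, was at 15.0 ± 3.08 and 15.7 ± 1.12 FPKM with overlap. Plagl1, an imprinted zinc finger gene, was at 3.40 ± 1.84 and 11.5 ± 3.39 FPKM, a difference of 1.34 ± 0.34 that fell just short of the limit, at 0.997, without hippocampus replicates 3 and 4.

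**Figure D4:**
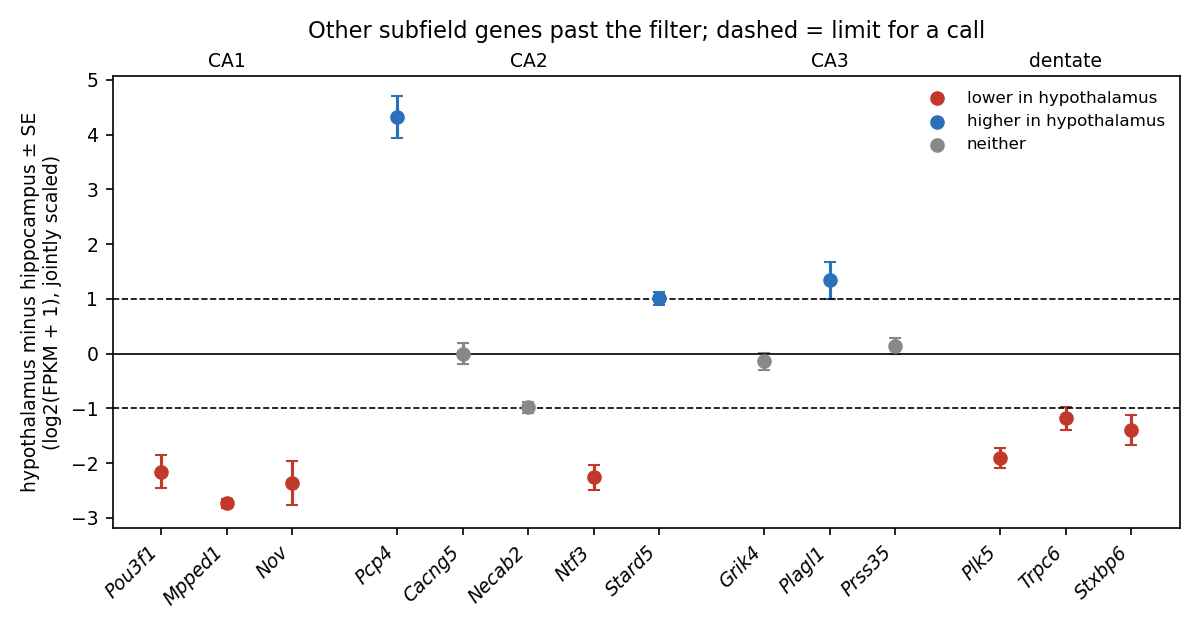
Difference between hypothalamus and hippocampus, with SE, for the further subfield genes past the filter (vertical axis, log2(FPKM + 1) after joint scaling; colours give the call, dashed lines the limit). All CA1 and dentate genes lie below the lower limit, whereas CA2 genes span from Ntf3 at -2.26 to Pcp4 at 4.32.

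Genes that mark the ventral end of the hippocampus did not share a direction. The 6 such genes gave 2 calls lower in hypothalamus and 2 higher, beside 13.4% lower and 13.3% higher over all genes. Their median difference was 0.77. Coch, a secreted protein, averaged 3.10 ± 2.12 FPKM in hippocampus against 31.8 ± 18.4 FPKM in hypothalamus. Nr2f2, a nuclear receptor that many hypothalamic neurons express, was at 8.11 ± 2.58 and 40.4 ± 4.87 FPKM. Dcn, a proteoglycan that fibroblasts express as well, was at 23.6 ± 6.72 and 54.9 ± 16.5 FPKM and was neither at 0.94, but went past the limit on the deposited values (1.17), and without hypothalamus replicate 1 (1.18), hippocampus replicate 2 (1.09) or the first library of both tissues (1.02). Etv1, a transcription factor, was called lower at -1.01 ± 0.25, and its call ended on the deposited values (-0.79), under upper-quartile scaling (-0.90), and without hippocampus replicate 2 (-0.82), hypothalamus replicate 2 (-0.92) or hypothalamus replicate 3 (-0.97).

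Relatives and partners of the members were mixed. Of 21 such genes 19 were in both tables and 16 passed the filter, and these gave 5 calls lower in hypothalamus, 2 higher and 9 of neither kind at a median of -0.29, where 13.4% of all genes were lower and 13.3% higher. Those lower numbered 2 on the deposited values, where 9.62% of all genes were lower. They numbered 3 under upper-quartile scaling (11.2% of all genes) or without the first library of both tissues (14.4%). C1ql1, the relative of C1ql2 and C1ql3 known from climbing fibres of the cerebellum, went the opposite way to them, averaging 10.5 ± 3.09 FPKM in hippocampus against 56.1 ± 18.8 FPKM in hypothalamus, a difference of 2.07 ± 0.36. Bai3, which encodes a receptor of these proteins and was named after its values were seen, was at 44.1 ± 3.51 and 23.7 ± 2.62 FPKM. Its difference of -1.10 ± 0.09 was -0.87 on the deposited values and -0.99 under upper-quartile scaling, short of the limit. Cpne6, a copine of excitatory neurons, was the most abundant relative of Cpne4 in hippocampus at 179.9 ± 45.02 FPKM, against 85.04 ± 18.1 in hypothalamus. Its difference of -1.30 ± 0.25 was far smaller in size than that of Cpne4, and was -0.97 without the first library of both tissues. Rgs10, of the same RGS subfamily as Rgs14 and also known from microglia, was at 90.1 ± 20.3 and 24.01 ± 2.58 FPKM, a difference of -2.07 ± 0.16.

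The gene closest to each member in pattern was found by the root mean square distance of log2(FPKM + 1) over the 8 jointly scaled libraries, among 10556 other genes. The nearest gene was Nucb2 for Amigo2, at a distance of 0.09, Zfp189 for Man1a1 (0.12), Mib2 for Bok (0.12) and Plekhg1 for Prox1 (0.14). It was Lrrc10b for Rgs14 (0.23), Cabp7 for Wfs1 (0.23), Kalrn for Cpne4 (0.25) and Ppm1e for C1ql3 (0.26). C1ql2 had the most distant neighbour, Klf16 at 0.39. Nucb2, the precursor of nesfatin-1, was at 9.14 FPKM in hippocampus and 29.3 FPKM in hypothalamus, and Cabp7, a calcium-binding protein, at 130 and 16.1 FPKM, which lies close to Amigo2 and Wfs1 respectively.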

How the data were processed

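Hippocampus and hypothalamus RNA, selected for polyadenylated transcripts, was sequenced on an Illumina HiSeq instrument, according to the labels. FPKM per locus were deposited in a table for each tissue, and the status given for every locus of the members read OK. Cufflinks and Cuffdiff, TopHat and TopHat2, Bowtie and Bowtie2, and the rat build rn5 are named in the submitters' processing notes. Their versions were not given in the sources used here. The depth of each library is unknown.

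Loci with the same symbol were added up in FPKM, and the 15892 symbols in both tables were used. Levels are as deposited. For the tissue comparison each library was divided by a median-of-ratios factor over these symbols (0.889 to 0.947 for hippocampus and 1.07 to 1.11 for hypothalamus), genes averaging 1 FPKM or more were kept, and 1 was added before taking log2. Spread within a tissue used factors within its table. limma 3.58.1 with a mean-variance trend was an alternative (Benjamini-Hochberg adjusted p below 0.05, difference of 1 or more). Calculations were tested on simulated data. The same replicate numbers occur in both tissues, and nothing in the labels ties them to shared animals. Promoter windows came from RefSeq (GRCr8). The members and lists were chosen with earlier results of these data known. Genes named were all members, from each further list the 2 called genes with the largest difference and the 2 with the highest hippocampus level, from marker lists the highest gene of each tissue, and each member's nearest gene; marker genes were given mainly as sums. In the list of further CA1 genes and in that of striatal markers, 1 gene each is not reported here and was left out of the list's counts and sums.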

Additional observations from a re-analysis of the deposited data

Results flagged for a closer look

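In 3 of 24 groups of 4 libraries, a single library lay far from the others by Dixon's test at the 95% level, which chance alone gives in about 1 of 20 groups. Rgs14 was at 24.7 FPKM in hippocampus replicate 4, against 36.2 to 37.5 FPKM in the others. Man1a1 was at 6.15 FPKM in hypothalamus replicate 1, against 4.37 to 4.61 FPKM. Prox1 was at 5.23 FPKM in hypothalamus replicate 1, against 3.70 to 3.82 FPKM. Both of these hypothalamus values are from replicate 1, which was the highest library of that tissue for 41.0% and the lowest for 41.9% of 8089 genes.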

How the results depend on the processing

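The members called numbered 5 to 7 lower and 1 higher over 19 alternatives, the lowest count among single-locus symbols, where 7 members were left. Over the same alternatives 9.09% to 15.3% of all genes were called lower and 9.18% to 18.1% higher. Of 169 recomputed differences of members none changed sign, and 4, all of C1ql2, lost the call. With limma the counts were 7 and 1 without and with the replicate block. Same-numbered libraries of the tissues had correlations of deviations of -0.08, -0.06, 0.08 and 0.14 across genes. Differently numbered ones ran from -0.20 to 0.20, so these values cannot show whether same-numbered libraries share animals. The numbers were not taken as pairs because nothing in the labels ties them. Grik4 changed sign with values as deposited (0.078) and without the first library of both tissues (0.0046), and Stxbp6 with the highest locus only (0.15). With a pseudocount of 0.1 the CA2, CA3 and dentate balances were 1.59, 2.98 and 2.40 in hippocampus and 2.22, 2.52 and 2.19 in hypothalamus, since Fibcd1 at 0 then weighs more. Without Fibcd1, an alternative chosen after seeing the data, they were -1.30, 0.040 and -0.52 in hippocampus and 0.10, 0.31 and 0.011 in hypothalamus. Members with a spread above the median gene numbered 1 to 4 in hypothalamus when 1 library was left out, and 5 in hippocampus without replicates 3 and 4, also chosen after seeing the data. Leaving out libraries for their choroid plexus genes, or the first library of both tissues, was likewise added later. Depth is unknown, and 4 libraries per tissue from separate tables limit what the levels can show.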
